A study of Homo sapiens with 12 samples.

Results

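Vesicles of the colorectal cancer line SW1116 were compared with those of the lines HT55 and RCM-1 by their microRNAs (miRNAs). The 6 libraries are the SW1116, HT55 and RCM-1 samples of a series of 12, chosen by their cell line labels, with 2 libraries per line. SW1116 was set against the mean of the other 2 lines, and the remaining 3 lines of the series carried no weight in the comparison. All 3 lines are untreated, established tumour lines with no genetic change made for the study, grown alike in DMEM/F12 with antibiotics and fetal bovine serum. The labels used here do not say whether the serum had been cleared of its own vesicles. Vesicles were separated from the medium by ultrafiltration and size-exclusion chromatography, and small RNA was sequenced from what was collected. The series asks how vesicle miRNAs differ between molecular subtypes of colorectal cancer, but no label used here ties a line to a subtype, so only lines were compared. The labels do not say whether both libraries of each line stem from separate cultures, and each p-value measures the spread between libraries, which may be technical. The comparison is also of 1 line with 2 others, and it cannot tell a trait of SW1116 from a trait shared by other lines of its kind.

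Counts were deposited for 1636 mature miRNAs; 995 were seen in these 6 libraries and 318 were tested. Those 318 held 99.8% of the 6 libraries' counts. SW1116 was the most deeply sequenced line, with 622800 and 498342 counts, against 138753 and 206808 in HT55 and 172320 and 372549 in RCM-1. Levels below (CPM) are counts scaled by the library total multiplied by the library's TMM factor. These factors allow for a few abundant miRNAs taking up the counts of the others. After this correction the levels of different libraries no longer add up to the same total. A level is therefore not a share of its library's counts. Libraries of the same line ranked the tested miRNAs alike (Spearman rho across miRNAs from 0.933 to 0.958, as a description). Between lines rho ran from 0.870 to 0.925, so the ranking was also much alike across lines. Counts of same-line libraries differed by more than counting noise, with chi-square per degree of freedom of at least 20.01. That says nothing of where the spread arose. Epithelial miRNAs were present in every library: the miR-200 family, tested or not, summed to between 82617 and 155761 CPM, and the intestinal list to between 13563 and 28350 CPM. Markers of stromal, muscle and endothelial cells summed to between 697 and 1302 CPM. The most abundant tested members of that list were miR-1-3p, miR-126-3p, miR-143-3p and miR-126-5p, so these markers were not absent as a set. Other members were scarce: miR-133b was at 0 counts in all 6 libraries, miR-145-5p had at most 3 counts and miR-214-3p at most 1 count.

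MiRNAs are short RNAs that guide the silencing complex to messenger RNAs and lower their output. Pairing rests mainly on the seed near the 5′ end, so miRNAs with a shared seed share most predicted targets. Many are made together from a single transcript that holds several hairpins. Cells release miRNAs inside vesicles and bound to other particles, and the released mixture need not mirror the mixture inside the cell.

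The mature sequences that carry the main differences are given here so that clusters and seeds can be followed through the results. They are from RefSeq (GRCh38.p14), written 5′ to 3′, with the seed (bases 2 to 8) in capitals. Of the 318 tested miRNAs, 286 matched an entry in that table. The first group is the chromosome 19 cluster, with let-7b-5p as a second let-7 of the same seed made elsewhere.
miR-99b-5p: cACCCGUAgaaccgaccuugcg
let-7e-5p: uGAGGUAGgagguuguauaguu
miR-125a-5p: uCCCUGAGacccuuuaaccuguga
let-7b-5p: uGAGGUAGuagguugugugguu
The next are the other strong differences towards higher levels in SW1116, where miR-221-3p and miR-222-3p share a seed and the arms of miR-9 do not.
miR-221-3p: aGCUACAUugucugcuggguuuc
miR-222-3p: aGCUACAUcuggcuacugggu
miR-9-5p: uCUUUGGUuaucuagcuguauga
miR-9-3p: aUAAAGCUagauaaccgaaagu
miR-205-5p: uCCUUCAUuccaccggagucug
The last are those at lower levels in SW1116, with miR-152-3p shown because it has the seed of miR-148a-3p and went the other way.
miR-148a-3p: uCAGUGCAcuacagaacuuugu
miR-152-3p: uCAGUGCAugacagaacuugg
miR-375-3p: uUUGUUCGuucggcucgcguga
miR-92a-3p: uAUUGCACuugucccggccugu
miR-92b-3p: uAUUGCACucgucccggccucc
miR-320b: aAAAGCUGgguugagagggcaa
miR-320c: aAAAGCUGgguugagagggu
miR-320d: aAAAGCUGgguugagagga

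SW1116 vesicles held more of a chromosome 19 miRNA cluster, miR-221 and miR-222, miR-9, miR-205 and miR-21, and less miR-148a and miR-375 and less of 4 miR-320 and 3 miR-92 products. Among the lower ones, only the calls of miR-148a and miR-375 held in every alternative and with each library left out. Of the 318 tested miRNAs, 41 (12.9%) differed from the mean of HT55 and RCM-1 at an adjusted p below 0.05 (edgeR quasi-likelihood F-test, Benjamini-Hochberg). Of these, 24 (7.55%) were higher and 17 (5.35%) lower. At an unadjusted p below 0.05 there were 94. Both SW1116 libraries lay above all 4 others for 43 miRNAs (13.5%) and below them for 47 (14.8%). Differences that passed the test and had no overlap numbered 23 higher (7.23%) and 13 lower (4.09%). The median log2 difference of all tested miRNAs was -0.10, with 136 above 0 and 181 below.

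The split between higher and lower rests on the scaling. With library totals as the only scaling the median of all tested miRNAs was -0.52, and 16 miRNAs were higher and 52 lower. The SW1116 TMM factors were 0.721 and 0.642, against 0.833 to 1.04 in the other 2 lines, and the 10 most abundant miRNAs held 76.5% and 78.0% of SW1116 counts against 66.7% to 72.2%. All 41 differences kept their direction in each alternative that tested them, that one included, and 33 of them were still called with library totals, 30 in limma-trend, and 17 with the 4 HT55 and RCM-1 libraries as a single group. Depth moved with the group too; with all deeper libraries thinned to the total of HT55 replicate 1, 23 miRNAs were higher and 19 lower.

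**Figure D1:**
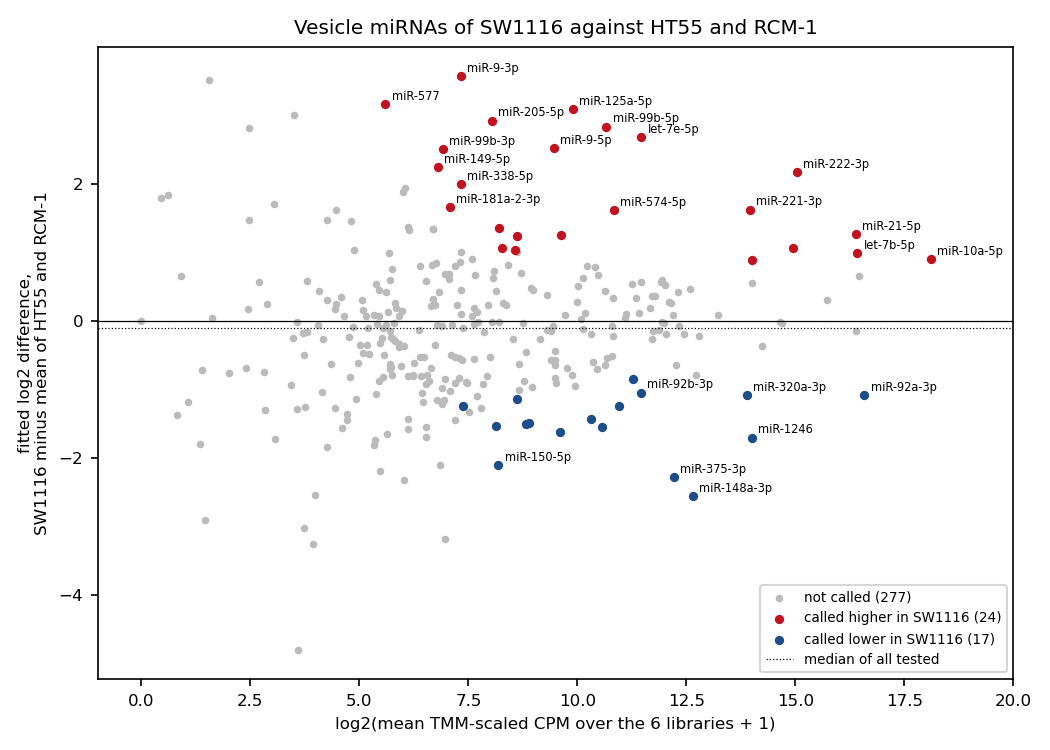
Each point is 1 of the 318 tested miRNAs, with its mean level over the 6 libraries as log2(TMM-scaled CPM + 1) on the x axis and the fitted log2 difference of SW1116 from the mean of HT55 and RCM-1 on the y axis. The 24 miRNAs called higher (red) and 17 called lower (blue) reach the top of the range of levels, where miR-10a-5p, the most abundant, is among those higher. They do not reach the bottom of the range: the scarcest tested miRNAs hold no calls.

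The miR-99b, let-7e and miR-125a hairpins lie side by side on chromosome 19, and all 4 of their tested products were higher in SW1116. The hairpins run on the plus strand at 51692612 to 51692681 (miR-99b), 51692786 to 51692864 (let-7e) and 51693254 to 51693339 (miR-125a) of GRCh38, in an intron of SPACA6 on the same strand and an exon of SPACA6P-AS on the other. miR-125a-5p, which targets the growth factor receptors ERBB2 and ERBB3, was at 1395 and 3180 CPM in the SW1116 libraries, 320 and 445 in HT55, and 208 and 171 in RCM-1. The lower SW1116 library was still above every other library, and the log2 difference was 3.08 ± 0.31 (SE; edgeR adjusted p = 6.9e-08). miR-99b-5p, of the family that lowers mTOR, was at 2931 and 4533 CPM in SW1116, 718 and 806 in HT55, and 436 and 292 in RCM-1. Here too the groups did not overlap, and the log2 difference was 2.83 ± 0.27 (edgeR adjusted p = 4.46e-08). let-7e-5p, a member of the let-7 family that restrains RAS and other growth genes, was at 5154 and 7672 CPM in SW1116, 1203 and 1279 in HT55, and 905 and 716 in RCM-1. Both SW1116 libraries were again the highest, with a log2 difference of 2.68 ± 0.26 (edgeR adjusted p = 4.46e-08). All 4 products were higher in SW1116 replicate 2 than in replicate 1.

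miR-99b-3p, the other arm of the miR-99b hairpin, was far less abundant, at 165 and 337 CPM in SW1116, 77.9 and 78.8 in HT55, and 45.6 and 11.8 in RCM-1. Its log2 difference was 2.50 ± 0.44 (edgeR adjusted p = 0.000208), and its call ended when the HT55 and RCM-1 libraries were treated as a single group (adjusted p = 0.0562). The calls of miR-99b-5p, let-7e-5p and miR-125a-5p held in every alternative and with each of the 6 libraries left out. Between the reference lines, miR-99b-5p was higher in HT55 than in RCM-1 by 1.09 ± 0.35 on the log2 scale (edgeR adjusted p = 0.0414), so the size of its difference depends on the line used as reference.

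The human genome carries further copies of the cluster on chromosomes 11 and 21, whose products differ from those of the chromosome 19 cluster by a few bases. None of their tested products was called. miR-100-5p was at 4273 and 3193 CPM in SW1116, 4959 and 6478 in HT55, and 3661 and 2676 in RCM-1. Its log2 difference was -0.19 ± 0.24 (edgeR adjusted p = 0.688), and the lines overlapped. miR-125b-5p was at 616 and 712 CPM in SW1116 and between 548 and 834 CPM in the other libraries, with a log2 difference of -0.07 ± 0.30 (edgeR adjusted p = 0.942). Likewise miR-99a-5p gave -0.57 ± 0.44 (adjusted p = 0.433) and let-7c-5p 0.57 ± 0.27 (adjusted p = 0.168) in the same test. Of the 10 tested miRNAs of these clusters, 4 were higher, against 7.55% of all tested, and none was lower. With the references as a single group 3 were higher. The median log2 difference of these clusters was 0.55, against -0.10 over all 318, and it was 1.25 without RCM-1 replicate 2. The 4 called in the main fit were the chromosome 19 products. How the authors assigned reads that match several near-identical miRNAs is not given in the sources used here, so counts could be split between such copies.

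miR-222-3p and miR-221-3p, made from neighbouring hairpins on the X chromosome, were among the most abundant miRNAs of SW1116 vesicles and were higher there. Both lower the cell cycle inhibitor CDKN1B, and the hairpins lie at 45747015 to 45747124 (the miR-222 hairpin) and 45746157 to 45746266 (the miR-221 hairpin) on the minus strand, in an intron of MIR222HG. miR-222-3p was at 53263 and 85374 CPM in SW1116, 16236 and 15935 in HT55, and 15119 and 14627 in RCM-1. The 4 reference libraries were close together and both SW1116 libraries stood well above them, with a log2 difference of 2.16 ± 0.23 (edgeR adjusted p = 1.62e-07). miR-221-3p was at 27696 and 30210 CPM in SW1116, 9001 and 9481 in HT55, and 9165 and 10001 in RCM-1. That is a log2 difference of 1.62 ± 0.21 (edgeR adjusted p = 2.37e-06), with no overlap. Neither miRNA differed between HT55 and RCM-1 by more than its error, at 0.11 ± 0.28 for miR-222-3p and -0.05 ± 0.25 for miR-221-3p.

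The passenger arms of both hairpins were scarcer. miR-221-5p was at 625 and 512 CPM in SW1116, 303 and 389 in HT55, and 241 and 203 in RCM-1, a log2 difference of 1.04 ± 0.27 (edgeR adjusted p = 0.00933). That call ended without SW1116 replicate 1 (adjusted p = 0.0992) and with library totals as the only scaling (0.60, adjusted p = 0.143). miR-222-5p was at 116 and 112 CPM in SW1116 and between 13.0 and 86.5 CPM in the others, and its log2 difference of 1.36 ± 0.56 did not pass (edgeR adjusted p = 0.104).

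**Figure D2:**
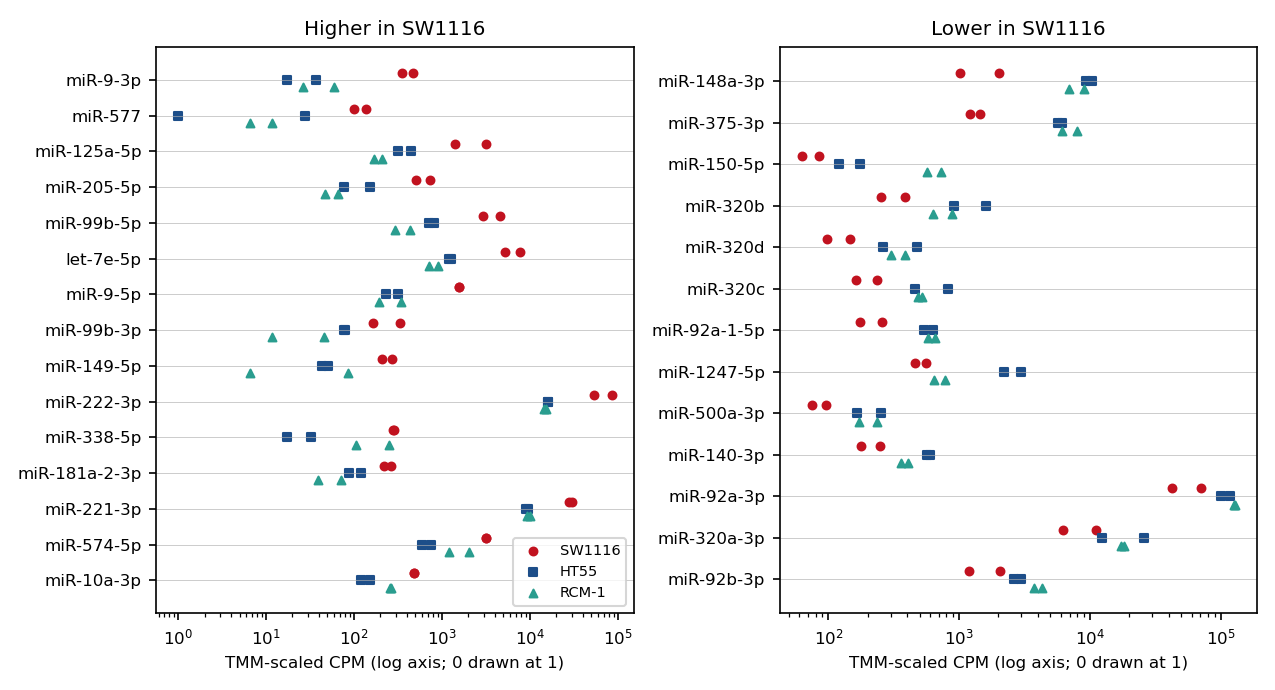
TMM-scaled CPM (log axis) of the 15 miRNAs with the largest differences towards SW1116 (left) and the 13 lower in SW1116 (right) by the naming rule, with 1 symbol per library: SW1116 red circles, HT55 blue squares, RCM-1 green triangles. By that rule both SW1116 libraries lie outside the range of the other 4 in every row; miR-577 was at 0 in HT55 replicate 1 and is drawn at 1.

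Both arms of miR-9 were higher in SW1116. miR-9 is best known from neural progenitors and is made from 3 hairpins, on chromosomes 1, 5 and 15, whose mature products cannot be told apart. miR-9-5p was at 1556 and 1568 CPM in SW1116, 234 and 320 in HT55, and 345 and 194 in RCM-1, a log2 difference of 2.52 ± 0.30 (edgeR adjusted p = 8.17e-07). miR-9-3p was at 470 and 350 CPM in SW1116, 17.3 and 37.1 in HT55, and 58.6 and 26.5 in RCM-1. Its log2 difference of 3.57 ± 0.48 (edgeR adjusted p = 3.21e-06) was the largest among all miRNAs called. The HT55 values of miR-9-3p rest on 2 and 8 counts and the RCM-1 values on 9 counts each. Other neural markers did not go with it: miR-124-3p had 1 count in all 6 libraries together, miR-137-3p had at most 2 counts in any, and miR-128-3p differed by 0.03 ± 0.29 (edgeR adjusted p = 0.969). Of the 5 tested miRNAs on the neural and liver list, 2 were higher (both miR-9 arms), against 7.55% of all tested, and none was lower. The median of that list was 0.03, or 0.26 without SW1116 replicate 1 and 0.77 without HT55 replicate 1.

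miR-205-5p, a miRNA of stratified epithelia that restrains ZEB1 and ZEB2, was at 507 and 725 CPM in SW1116, 77.9 and 153 in HT55, and 65.1 and 47.1 in RCM-1. Its hairpin lies on chromosome 1 at 209432133 to 209432242, in an exon of MIR205HG. The groups did not overlap, and the log2 difference was 2.92 ± 0.35 (edgeR adjusted p = 8.17e-07). SW1116 was not the line with the most miR-205-5p, since Car-1 vesicles, outside this contrast, averaged 4094 CPM. The squamous miRNA miR-203a-3p was at 5510 and 4508 CPM in SW1116 and between 4254 and 6128 CPM in the other libraries, with a log2 difference of -0.07 ± 0.25 (edgeR adjusted p = 0.918).

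miR-21-5p and miR-10a-5p were both abundant and higher in SW1116. miR-21-5p, an abundant tumour miRNA that lowers PDCD4, was at 139206 and 135873 CPM in SW1116, 40574 and 46222 in HT55, and 92271 and 58588 in RCM-1. Both SW1116 libraries were the highest, with a log2 difference of 1.27 ± 0.26 (edgeR adjusted p = 0.00139), or 0.83 with library totals as the only scaling. Against the lines one at a time, miR-21-5p was 1.66 ± 0.32 above HT55 (edgeR adjusted p = 0.000475) and 0.87 ± 0.31 above RCM-1, which did not pass (adjusted p = 0.0739).

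miR-10a-5p, made from the HOXB cluster on chromosome 17 (48579838 to 48579947, an intron of HOXB3 that overlaps an annotated exon of HOXB4), was the most abundant miRNA in all 3 lines. It was at 398514 and 410555 CPM in SW1116, 198117 and 173084 in HT55, and 254508 and 252315 in RCM-1. The log2 difference was 0.90 ± 0.22 (edgeR adjusted p = 0.00532), with no overlap, but it was 0.47 with library totals as the only scaling (adjusted p = 0.0788) and did not pass without SW1116 replicate 2 (adjusted p = 0.0514). Its other arm, miR-10a-3p, was at 485 and 484 CPM in SW1116, 121 and 153 in HT55, and 254 and 262 in RCM-1, a log2 difference of 1.35 ± 0.35 (edgeR adjusted p = 0.008). That call ended without either SW1116 library (adjusted p = 0.0561 without replicate 1 and 0.0514 without replicate 2). miR-10b-5p, the HOXD copy that differs from miR-10a-5p near its middle, gave -0.20 ± 0.23 (edgeR adjusted p = 0.629).

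Further miRNAs were higher in SW1116 at moderate levels. miR-574-5p was at 3203 and 3136 CPM in SW1116, 744 and 593 in HT55, and 2019 and 1208 in RCM-1, a log2 difference of 1.61 ± 0.27 (edgeR adjusted p = 9.9e-05) that held in every alternative. HT55 held less of it than RCM-1 (-1.27 ± 0.33, edgeR adjusted p = 0.0116), so most of the distance is to HT55. miR-181a-2-3p was at 265 and 222 CPM in SW1116 and between 39.1 and 121 CPM elsewhere, a log2 difference of 1.66 ± 0.35 (edgeR adjusted p = 0.00172, or 0.0773 with the references as a single group). The miR-181a-5p arm, made from this hairpin and from a copy elsewhere, differed by 0.33 ± 0.24 and did not pass (edgeR adjusted p = 0.395). miR-27a-3p was at 1119 and 1443 CPM in SW1116 and between 450 and 610 CPM elsewhere, a log2 difference of 1.25 ± 0.31 (edgeR adjusted p = 0.00532, or 0.0694 without SW1116 replicate 2 and 0.0667 with library totals). It was named after its values were seen, and its cluster neighbours miR-23a-3p and miR-24-3p did not pass.

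let-7b-5p was at 114138 and 147771 CPM in SW1116, 85310 and 48812 in HT55, and 68729 and 61093 in RCM-1. Its log2 difference of 0.99 ± 0.26 (edgeR adjusted p = 0.00901) did not pass without SW1116 replicate 2 (adjusted p = 0.132) or with library totals (0.57, adjusted p = 0.0715). Among the 10 tested miRNAs of the let-7 list, let-7b-5p was the only one called, where 12.9% of all tested miRNAs were. That list leaves out the cluster members let-7e and let-7c. With library totals none of the list was higher and 1 was lower. With no filter, with 10 CPM in 2 libraries and with only the 6 libraries, 3 were higher. let-7a-5p had the same pattern of libraries, at 109925 and 128754 CPM in SW1116 and between 56824 and 97791 CPM elsewhere, and did not pass (0.65 ± 0.26, edgeR adjusted p = 0.104). The median of the list was 0.36, and it was -0.08 with library totals as the only scaling and 0.60 without HT55 replicate 2.

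The miR-183 cluster of epithelial and sensory cells had 2 of 3 tested members higher in SW1116, against 7.55% of all tested miRNAs. With library totals as the only scaling 1 of 3 was higher, and with the references as a single group none was. miR-182-5p was at 43090 and 51008 CPM in SW1116, 38557 and 22529 in HT55, and 18324 and 15128 in RCM-1, a log2 difference of 1.06 ± 0.24 (edgeR adjusted p = 0.00298). miR-183-5p was at 21069 and 25053 CPM in SW1116, 21672 and 13702 in HT55, and 9400 and 8318 in RCM-1, a log2 difference of 0.88 ± 0.23 (edgeR adjusted p = 0.00942). HT55 replicate 1 lay between the SW1116 libraries for miR-183-5p. Both differences were mainly from RCM-1: against HT55 alone neither passed (adjusted p = 0.126 and 0.367), and HT55 was above RCM-1 by 0.87 ± 0.29 for miR-182-5p and 1.00 ± 0.28 for miR-183-5p (edgeR adjusted p = 0.0452 and 0.0194). The call of miR-183-5p ended without SW1116 replicate 2 (adjusted p = 0.12) and with library totals (0.46, adjusted p = 0.136), while that of miR-182-5p held there, at 0.64. With the references as a single group neither passed (adjusted p = 0.206 for miR-183-5p and 0.0773 for miR-182-5p). miR-96-5p, between them in the cluster, was between 21.9 and 97.7 CPM in all 6 libraries and was not called.

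The remaining miRNAs that were higher were scarce or rested on a single reference line. miR-577 was at 100 and 137 CPM in SW1116, from 45 and 44 counts, and had 0 and 6 counts in HT55 and 1 and 4 in RCM-1. Its fitted log2 difference of 3.16 ± 0.77 (edgeR adjusted p = 0.00532) rests on few reference counts, was 5.88 without HT55 replicate 2, and did not pass without SW1116 replicate 2 (adjusted p = 0.0868). miR-149-5p, from an intron of GPC1, was at 207 and 269 CPM in SW1116, 43.3 and 51.0 in HT55, and 6.51 and 85.5 in RCM-1. Its log2 difference of 2.24 ± 0.58 (edgeR adjusted p = 0.009) was 3.73 without RCM-1 replicate 2 and did not pass without SW1116 replicate 2 (adjusted p = 0.0868). miR-338-5p, from an intron of AATK, was at 283 and 275 CPM in SW1116, 17.3 and 32.4 in HT55, and 104 and 250 in RCM-1. RCM-1 replicate 2 came close to SW1116: the log2 difference was 3.38 ± 0.72 from HT55 (edgeR adjusted p = 0.00142) and 0.62 ± 0.58 from RCM-1 (adjusted p = 0.598). The difference from their mean, 2.00 ± 0.53 (edgeR adjusted p = 0.0091), did not pass without SW1116 replicate 1 or 2 (adjusted p = 0.0744 and 0.0677). miR-28-5p, named after its values were seen, gave 1.06 ± 0.35 (edgeR adjusted p = 0.045) and did not pass in 5 of the 6 fits that leave out a library (adjusted p = 0.187 without SW1116 replicate 1, 0.0944 without SW1116 replicate 2, 0.0979 without HT55 replicate 1, 0.0573 and 0.0787 without RCM-1 replicate 1 and 2).

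miR-148a-3p had the largest difference among the 17 miRNAs called lower. It is abundant in digestive epithelium and lowers the DNA methyltransferase DNMT1, and its hairpin lies on chromosome 7 at 25949919 to 25949986, within no other annotated gene. It was at 2003 and 1015 CPM in SW1116, 10316 and 9328 in HT55, and 9087 and 6925 in RCM-1. The SW1116 libraries lay far below the rest although they differed from each other, and the log2 difference was -2.55 ± 0.30 (edgeR adjusted p = 8.04e-07). HT55 and RCM-1 differed by 0.30 ± 0.31.

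miR-152-3p, with the same seed, differed in the opposite direction. It comes from an intron of COPZ2 on chromosome 17 (48037161 to 48037247) and was named after its values were seen. It was at 561 and 675 CPM in SW1116, 355 and 385 in HT55, and 195 and 174 in RCM-1. The groups did not overlap, and the log2 difference was 1.24 ± 0.29 (edgeR adjusted p = 0.00377), which did not pass with library totals as the only scaling (0.80, adjusted p = 0.0611). miR-148b-3p, the third miRNA of that seed, was at 1162 and 965 CPM in SW1116 and between 995 and 1372 CPM elsewhere, a difference of -0.12 ± 0.26 (edgeR adjusted p = 0.845). Summed over the 3, the seed family was at 3726 and 2655 CPM in SW1116 against 8142 to 11667 CPM, a ratio of means of 0.308.

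miR-375-3p, a miRNA of hormone-secreting and other secretory epithelial cells, was also lower in SW1116. It was at 1220 and 1446 CPM there, 5747 and 6079 in HT55, and 6104 and 7994 in RCM-1. Its hairpin lies on chromosome 2 at 219001645 to 219001708. All 4 reference libraries were more than the SW1116 libraries summed, and the log2 difference was -2.28 ± 0.28 (edgeR adjusted p = 1.21e-06), again with little between the references (-0.25 ± 0.29). The calls of miR-148a-3p and miR-375-3p held in every alternative and with each library left out, and they were the only 2 of the 17 lower ones for which that was so.

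In the miR-320 family, 4 of 5 tested members were lower in SW1116, where 5.35% of all tested miRNAs were. With the HT55 and RCM-1 libraries as a single group none of the 4 was called. The fifth, miR-320e, had 7 to 31 counts per library and was not called (-1.57 ± 0.89, edgeR adjusted p = 0.236). Their hairpins are on different chromosomes, and miR-320b, miR-320c and miR-320d share their leading 18 bases, so reads may not always tell them apart. miR-320b was at 251 and 384 CPM in SW1116, 1618 and 917 in HT55, and 632 and 875 in RCM-1, a log2 difference of -1.62 ± 0.37 (edgeR adjusted p = 0.00346). miR-320c was at 162 and 237 CPM in SW1116 and between 463 and 822 CPM elsewhere (-1.50 ± 0.40, edgeR adjusted p = 0.0102). miR-320d was at 97.9 and 147 CPM in SW1116 and between 259 and 476 CPM elsewhere (-1.54 ± 0.44, edgeR adjusted p = 0.0151). HT55 replicate 1 was the highest library for miR-320b, miR-320c and miR-320d. The most abundant of the family, miR-320a-3p, was at 6274 and 11164 CPM in SW1116, 25748 and 12409 in HT55, and 17360 and 18119 in RCM-1, a log2 difference of -1.08 ± 0.31 (edgeR adjusted p = 0.0155). Without SW1116 replicate 1 none of the 4 passed (adjusted p = 0.27 and a difference of -0.70 for miR-320a-3p, 0.0744 for miR-320b, 0.15 for miR-320c and 0.183 for miR-320d). Without HT55 replicate 1 miR-320a-3p, miR-320c and miR-320d did not pass (adjusted p = 0.0925, 0.0501 and 0.0771), nor did miR-320d without SW1116 replicate 2 (0.0565).

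Of 5 tested miR-92 products, 3 were lower in SW1116, where 5.35% of all tested miRNAs were. With the HT55 and RCM-1 libraries as a single group only miR-92a-3p was still called. The scarce arms miR-92b-5p and miR-92a-2-5p, with at most 9 counts in any of the 6 libraries, were not called (-0.06 ± 0.91 and -1.44 ± 0.70, edgeR adjusted p = 0.985 and 0.168). miR-92a-3p, a product of the growth-promoting miR-17-92 cluster in MIR17HG on chromosome 13 (hairpin at 91351314 to 91351391) and of its copy on the X chromosome, was at 42389 and 70304 CPM in SW1116, 118545 and 101562 in HT55, and 127277 and 129546 in RCM-1. No library overlapped, and the log2 difference was -1.08 ± 0.25 (edgeR adjusted p = 0.00402). miR-92a-1-5p, the other arm of the chromosome 13 hairpin, was at 174 and 256 CPM in SW1116 and between 542 and 651 CPM elsewhere (-1.48 ± 0.36, edgeR adjusted p = 0.00532). miR-92b-3p, from chromosome 1 and with the same seed, was at 1195 and 2055 CPM in SW1116, 2951 and 2609 in HT55, and 4312 and 3763 in RCM-1 (-1.04 ± 0.28, edgeR adjusted p = 0.0091). SW1116 replicate 1 was the lower SW1116 library for each of the 3 that were called. Without it they did not pass, with adjusted p = 0.15 for miR-92a-3p, 0.124 for miR-92a-1-5p and 0.217 for miR-92b-3p, whose difference was then -0.68.

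Beside the 2 arms of miR-92a, the miRNAs of MIR17HG did not pass one by one. miR-17-5p was at 625 and 456 CPM in SW1116 and between 695 and 996 CPM elsewhere, with a log2 difference of -0.57 ± 0.30 (edgeR adjusted p = 0.206). miR-20a-5p gave -0.60 ± 0.29 and miR-19b-3p -0.64 ± 0.34 (adjusted p = 0.168 and 0.206). On the list of miR-17-92 and its copies on chromosomes 7 and X, which leaves out the tested minor arms miR-92a-1-5p, miR-92a-2-5p, miR-363-5p and miR-20b-3p, 17 miRNAs were tested, 1 was lower (miR-92a-3p), none was higher, and the median was -0.64 against -0.10 over all tested. All 17 lay below 0, and between 14 and 17 did under the alternatives; with library totals 7 were lower, and without SW1116 replicate 1 none was. Members of 1 transcript are not independent of each other.

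miR-150-5p, a lymphocyte miRNA that lowers MYB, was at 62.3 and 84.3 CPM in SW1116, 121 and 176 in HT55, and 567 and 731 in RCM-1. RCM-1 was set apart from both other lines: the log2 difference of SW1116 was -3.15 ± 0.50 from RCM-1 (edgeR adjusted p = 6.35e-05) and -1.04 ± 0.51 from HT55 (adjusted p = 0.152). The difference from their mean was -2.10 ± 0.46 (edgeR adjusted p = 0.00226, or 0.0566 without SW1116 replicate 1). miR-486-5p, a red cell miRNA, was at 1674 and 1259 CPM in SW1116, 4734 and 4092 in HT55, and 1941 and 1246 in RCM-1, so it was lower than in HT55 (-1.59 ± 0.31, edgeR adjusted p = 0.000502) and overlapped RCM-1 (-0.11 ± 0.30, adjusted p = 0.936). Against the mean of both lines it was no longer called in 6 of the 12 alternatives that leave out none of the 6 libraries. The call against the mean (-0.85 ± 0.27, edgeR adjusted p = 0.0377) was lost in 5 of the 6 fits that leave out a library: adjusted p = 0.0734 and 0.406 without SW1116 replicate 1 and 2, 0.102 and 0.14 without HT55 replicate 1 and 2, and 0.165 without RCM-1 replicate 1.

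On the whole blood cell list, 2 of 8 tested markers were lower (3 with library totals), where 5.35% of all tested miRNAs were, and none was higher. The median was -0.87, or -1.78 without SW1116 replicate 1 and -0.43 without SW1116 replicate 2. With any single library other than RCM-1 replicate 2 left out, 1 marker was lower. The list summed to 2470 and 1706 CPM in SW1116, 6119 and 5574 in HT55, and 3374 and 2534 in RCM-1. miR-451a, the defining red cell miRNA, was at 205 and 169 CPM in SW1116 and between 144 and 398 CPM elsewhere (-0.53 ± 0.37, edgeR adjusted p = 0.373), and miR-144-3p had 2 counts in all 6 libraries together. The summed blood markers were thus lowest in SW1116 replicate 2 and highest in HT55, and their part in the other differences was not tested. In vesicles, fewer particles that carry a miRNA and fewer copies per particle cannot be told apart.

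The other miRNAs called lower were less abundant. miR-1247-5p, from DIO3OS on chromosome 14, was at 554 and 459 CPM in SW1116, 2951 and 2210 in HT55, and 645 and 787 in RCM-1. Its difference from the mean (-1.42 ± 0.34, edgeR adjusted p = 0.00409, or 0.0823 without SW1116 replicate 2) came mostly from HT55, which was above RCM-1 by 1.84 ± 0.37 (edgeR adjusted p = 0.00172). miR-140-3p, a cartilage-rich miRNA from WWP2, was at 249 and 178 CPM in SW1116 and between 358 and 597 CPM elsewhere (-1.14 ± 0.31, edgeR adjusted p = 0.0119), and did not pass without SW1116 replicate 2 (0.208) or HT55 replicate 2 (0.0748). miR-500a-3p, from CLCN5 on the X chromosome, was at 95.7 and 75.0 CPM in SW1116 and between 167 and 251 CPM elsewhere (-1.24 ± 0.41, edgeR adjusted p = 0.0465). miR-500a-3p was no longer called in 7 of the 12 alternatives that leave out none of the 6 libraries. Its call was lost in 5 of the 6 fits that leave out a library (adjusted p = 0.126 and 0.3 without SW1116 replicate 1 and 2, 0.142 and 0.0918 without HT55 replicate 1 and 2, 0.106 without RCM-1 replicate 1).

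For some miRNAs the mean of HT55 and RCM-1 describes neither line. In all, 43 of 318 miRNAs (13.5%) differed between HT55 and RCM-1, with 26 (8.18%) higher in HT55 and 17 (5.35%) higher in RCM-1. Against HT55 alone SW1116 differed in 65 miRNAs (20.4%), 33 of them higher (10.4%) and 32 lower (10.1%). Against RCM-1 alone it differed in 43 (13.5%), 26 higher (8.18%) and 17 lower (5.35%). These comparisons share the SW1116 libraries and are therefore not independent.

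miR-1246 and miR-1290 were high in HT55 vesicles only among these 3 lines. miR-1246, whose sequence is also found in a spliceosomal small nuclear RNA, was at 3018 and 4092 CPM in SW1116, 52907 and 32608 in HT55, and 3003 and 3230 in RCM-1. SW1116 overlapped RCM-1 (0.19 ± 0.32, edgeR adjusted p = 0.83) and was lower than HT55 (-3.59 ± 0.35, adjusted p = 8.07e-08), while HT55 lay above RCM-1 by 3.78 ± 0.36 (adjusted p = 2.84e-08). The call against the mean (-1.70 ± 0.30, edgeR adjusted p = 0.000215) is thus a value between 2 unlike lines; miR-1246 was named after its values were seen. miR-1290 was at 385 and 394 CPM in SW1116, 3678 and 3962 in HT55, and 339 and 342 in RCM-1, with log2 differences of -3.29 ± 0.38 from HT55 and 0.19 ± 0.36 from RCM-1 (edgeR adjusted p = 7.5e-07 and 0.844). With the HT55 and RCM-1 libraries as a single group neither passed, at -2.59 (adjusted p = 0.431) for miR-1246 and -2.33 (0.391) for miR-1290.

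miR-509-3p, from the X-linked miR-506-514 cluster that is normally active in testis, separated all 3 lines. It was at 316 and 250 CPM in SW1116, 8049 and 3091 in HT55, and 78.2 and 82.5 in RCM-1. The log2 difference of SW1116 was -4.29 ± 0.43 from HT55 and 1.81 ± 0.44 from RCM-1 (edgeR adjusted p = 8.07e-08 and 0.00664). Its call against the mean (-1.24 ± 0.37, edgeR adjusted p = 0.0211) was lost without HT55 replicate 1 (-0.80, adjusted p = 0.204), without SW1116 replicate 1 (0.0721) or 2 (0.208) and without RCM-1 replicate 2 (0.0733). miR-508-3p of the same cluster had 11 and 8 counts in SW1116, 71 and 55 in HT55, and 1 and 1 in RCM-1. The ratio of its pooled unscaled CPM, SW1116 to HT55, was 0.0465 (95% interval 0.0271 to 0.0756, covering counting error only). miR-513a-5p had 22 and 15 counts in HT55 and 1 count in the other 4 libraries together.

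**Figure D3:**
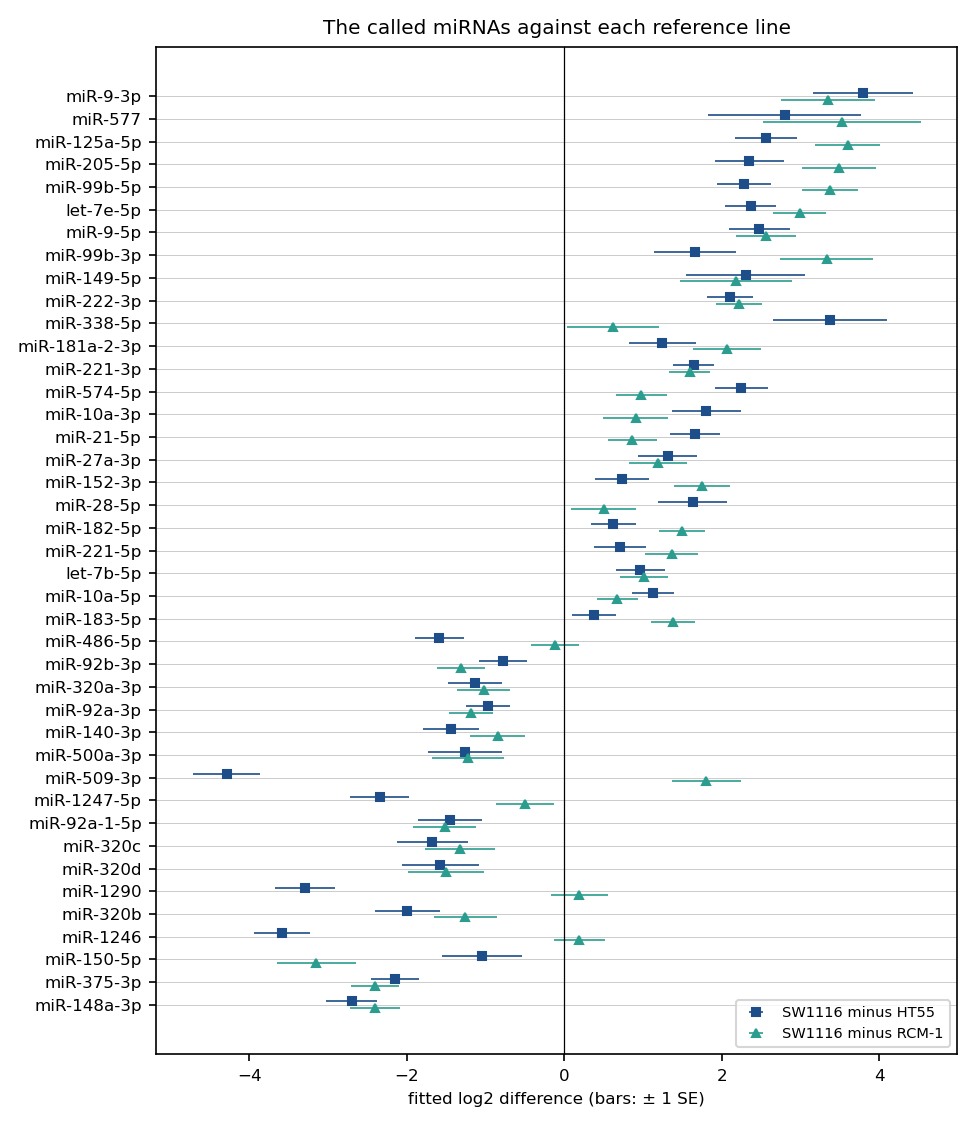
Fitted log2 difference of SW1116 from HT55 (blue squares) and from RCM-1 (green triangles), with bars of ± 1 SE, for the 41 miRNAs that differed from the mean of those lines. Most lie on the same side of 0 for both lines; miR-509-3p lies at -4.29 and 1.81, and miR-1246 and miR-1290 are near 0 against RCM-1.

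Lists of miRNAs with a known role gave the following counts against the mean of HT55 and RCM-1, where 7.55% of all tested miRNAs were higher and 5.35% lower. The miR-200 family, which holds cells in an epithelial state by lowering ZEB1 and ZEB2, had none of 7 tested members higher or lower, with a median of -0.07; with library totals as the only scaling 1 was lower and the median was -0.50, close to the -0.52 of all tested miRNAs. With a library left out the median lay between -0.15 (without RCM-1 replicate 1) and 0.06 (without RCM-1 replicate 2). Its most abundant member, miR-200c-3p, was at 69596 and 90546 CPM in SW1116, 104637 and 79339 in HT55, and 68267 and 103733 in RCM-1, and the lines overlapped (-0.15 ± 0.27, edgeR adjusted p = 0.813). The intestinal epithelial list had 1 of 5 lower, miR-375-3p, and a median of -0.97 (2 lower with library totals; median -0.63 without SW1116 replicate 1). Its p53-induced member miR-192-5p was at 10738 and 7741 CPM in SW1116, 5574 and 4912 in HT55, and 15568 and 13219 in RCM-1. SW1116 lay between the reference lines, which differed from each other (-1.46 ± 0.29, edgeR adjusted p = 0.00156), and the difference from their mean was 0.09 ± 0.24 (adjusted p = 0.882). miR-194-5p, made beside miR-192, was at 5728 and 3933 CPM in SW1116, 2813 and 2664 in HT55, and 5354 and 6515 in RCM-1 (0.26 ± 0.24, edgeR adjusted p = 0.512).

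The inflammation and invasion list had 4 of 11 higher, none lower and a median of 1.03, and with library totals 3 higher and 2 lower. Without SW1116 replicate 1 it had 3 higher and 2 lower; the median was 0.61 without SW1116 replicate 2, 0.66 without RCM-1 replicate 1, 0.24 after thinning and 0.23 without the 10 most abundant miRNAs. The 4 were miR-21-5p, miR-222-3p and both arms of miR-221. The immune members miR-155-5p and miR-146a-5p were not called. miR-155-5p was at 6058 and 2802 CPM in SW1116, 8932 and 11649 in HT55, and 6494 and 4838 in RCM-1 (-0.78 ± 0.30, edgeR adjusted p = 0.0832), and miR-146a-5p gave -0.55 ± 0.27 (adjusted p = 0.18). Both were lower than in HT55 in the test against that line alone, at -1.22 ± 0.33 and -1.07 ± 0.31 (edgeR adjusted p = 0.0119 and 0.0168). The HOX list had 2 of 6 higher, both arms of miR-10a, with a median of -0.42; with library totals none was higher and 2 were lower. Without SW1116 replicate 1, 1 was higher, without SW1116 replicate 2 none was, and without HT55 replicate 1 the median was -0.25. The miR-23, miR-27 and miR-24 list had 1 of 8 higher (miR-27a-3p, median 0.49), but none higher and 1 lower with library totals, none higher without SW1116 replicate 2, and 2 higher without HT55 replicate 2 (median 0.78) or RCM-1 replicate 2. The CLCN5 list had 1 of 8 lower (miR-500a-3p, median -0.59), or 3 with library totals, and the Xq27 list 1 of 3 lower (miR-509-3p, median -1.24, or -0.80 without HT55 replicate 1).

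No tested member of the miR-30 family passed (9 tested, median 0.38), but the median was -0.02 without SW1116 replicate 1, 0.64 without SW1116 replicate 2, 0.22 without HT55 replicate 1, and 0.75 with 2 members higher without HT55 replicate 2. By the main scaling no member passed in the Wnt-linked colorectal list (6 tested, median 0.59), the 14q32 imprinted cluster (6 tested, median -0.43, or -0.22 without SW1116 replicate 2 and -0.26 without HT55 replicate 2), the stromal, muscle and endothelial list (5 tested, median -0.54, or -0.22 with 1 lower without SW1116 replicate 2, -0.35 without RCM-1 replicate 1, and 1 lower by library totals), the miR-29 family (4 tested) or the tumour-suppressive miR-34 family (2 tested). On the squamous list 1 of 3 was higher, miR-205-5p, with a median of -0.07 (-0.20 without SW1116 replicate 1 to 0.10 without SW1116 replicate 2). None of the C19MC imprinted cluster was abundant enough to be tested.

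**Figure D4:**
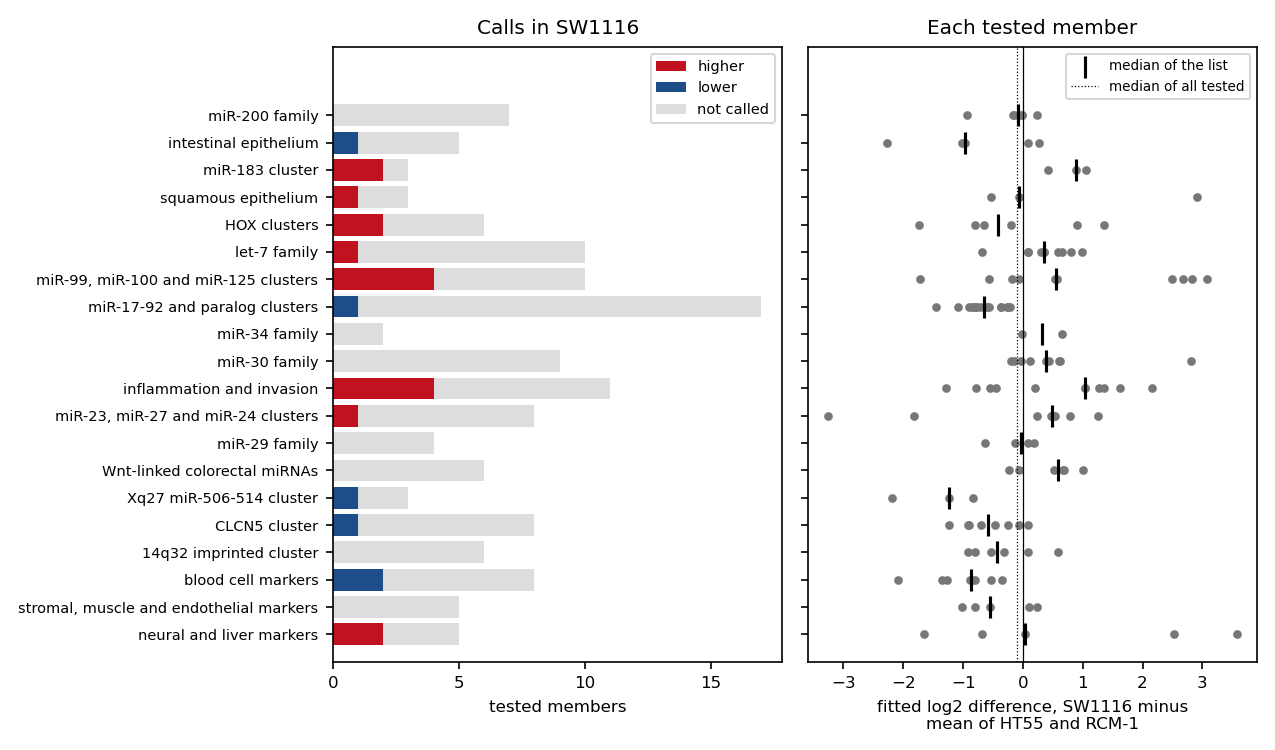
Left, the tested members of each list as bars from 0, split into those called higher in SW1116 (red), called lower (blue) and not called (grey); right, the fitted log2 difference of each tested member with the list's median as a black tick. The miR-200 family lies close to 0, the miR-17-92 list lies wholly below 0, and 4 members of the miR-99, miR-100 and miR-125 list stand apart at 2.50 and above.

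Summing miRNAs that share a seed shows how the pool that can pair with the same sites differed between the lines. The miR-221 and miR-222 seed summed to 80960 and 115584 CPM in SW1116 against 24284 to 25416 CPM elsewhere, a ratio of means of 3.95. The miR-125 seed, where only miR-125a-5p differed, summed to 2012 and 3892 CPM in SW1116 against 719 to 1279 CPM, a ratio of 2.98. For let-7, where let-7e is a small part of a large pool, the sums were 309271 and 367899 CPM against 162644 to 256139 CPM, a ratio of 1.62. The miR-27 seed summed to 2459 and 2674 CPM against 1151 to 1696 CPM, a ratio of 1.79. The miR-99 and miR-100 seed summed to 7780 and 8088 CPM in SW1116 against 4261 to 7789 CPM, so HT55 replicate 2 overlapped, and the ratio was 1.37. On the lower side, the miR-25 and miR-92 seed summed to 58451 and 89847 CPM against 122405 to 160312 CPM (ratio 0.517). These sums are descriptions with no test, and each ratio moves with the scaling between lines.

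**Figure D5:**
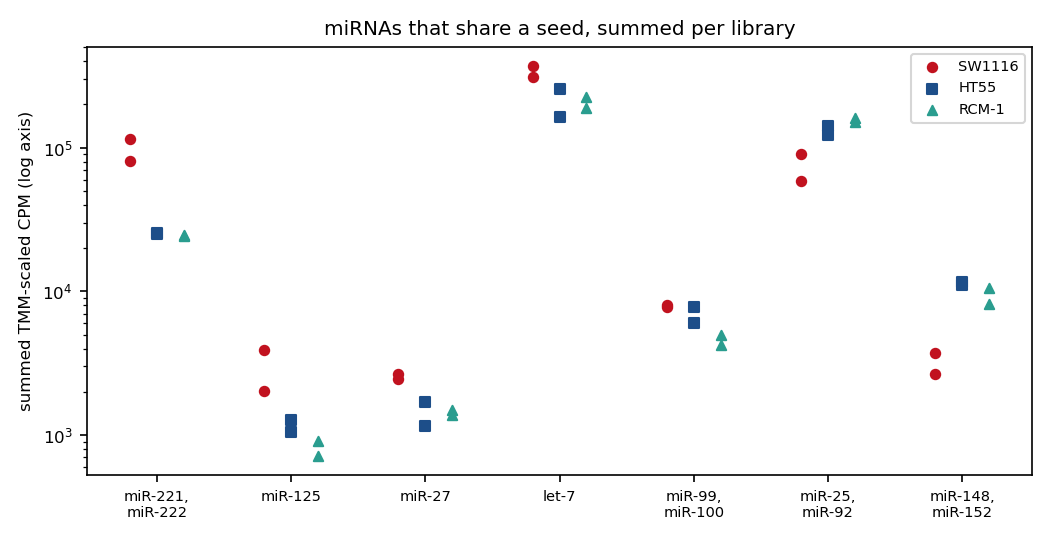
Summed TMM-scaled CPM (log axis) of tested miRNAs that share a seed, 1 symbol per library: SW1116 red circles, HT55 blue squares, RCM-1 green triangles. SW1116 lies above both lines for the miR-221 and miR-222 seed and the miR-125 seed, below both for the miR-25 and miR-92 seed and the miR-148 seed, and close to HT55 for the miR-99 and miR-100 seed.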

How the data were processed

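Per the labels' protocols, RNA was taken from vesicles with a kit for serum and plasma, and libraries were made with IsoSeek, which tags each molecule with a unique identifier. The build named is hg38, per the submitters' processing notes. Which aligner, counter and miRNA annotation were used, and if identifiers were collapsed, is not given in the sources used here; counting intervals cover counting error only. The authors deposited whole-number counts per mature miRNA, not normalised, and a table of log2 values. The deposited log2 values equal log2(CPM + 1) of the counts (largest difference 5e-14 over 19632 cells) and were used only in limma-trend.

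All 12 libraries entered a single edgeR 4.0.16 quasi-likelihood fit (robust, TMM factors, filterByExpr by line, R 4.3.3) with 1 mean per line, because 2 libraries per line say little about spread. The other 3 lines had weight 0 in each contrast. The common biological coefficient of variation was 0.304. Adjustment was by Benjamini-Hochberg over 318 miRNAs per comparison, with a threshold of 0.05, and SE is the log2 difference divided by the square root of F. The procedure was tested on simulated data first. It called 14 of 34 simulated 2-fold changes, 33 of 33 4-fold and 32 of 32 8-fold changes, and 0 of 182 unchanged miRNAs. The simulation gave every miRNA the same spread between libraries. A miRNA that did not pass may thus still differ by 2-fold or more, and for scarce miRNAs the simulation sets no bound. The main fit did not pair libraries by replicate number.

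The comparison, the lists and the naming rule were chosen with earlier results of these data known. The rule names up to 15 miRNAs per direction with the largest called difference, at least 100 CPM on the higher side and no overlap, their other arms, up to 4 members per list by level, the 8 most abundant in SW1116, and up to 6 that separate HT55 from RCM-1 with SW1116 between. Hairpin positions and mature sequences are RefSeq's (GRCh38.p14), and overlapping genes are from GENCODE v29. Alternatives were RLE factors, library totals, no filter, 10 CPM in 2 libraries, DESeq2 1.42.0, limma-voom and limma-trend (limma 3.58.1), a replicate block, only the 6 libraries, the HT55 and RCM-1 libraries as 1 group, leaving out the 10 most abundant miRNAs, leaving out each library, and thinning, which was added after seeing the data.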

Additional observations from a re-analysis of the deposited data

Results flagged for a closer look

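For 26 of the 103 miRNAs named by rule, HT55 and RCM-1 differed from each other (edgeR adjusted p below 0.05), which is the test of whether the difference of SW1116 depends on the reference line. Over all tested miRNAs it was 43 of 318 (13.5%). The rule names up to 6 miRNAs because they differ between these lines, so part of the 26 was fixed by the selection. Groups of 2 libraries allow no test for a single outlying library. The values are log2 differences, HT55 minus RCM-1. In the X-linked cluster they were 6.10 for miR-509-3p, 6.53 for miR-508-3p and 7.94 for miR-513a-5p. The last 2 are fitted values that lean on the prior count, since RCM-1 held 2 counts of miR-508-3p and none of miR-513a-5p. Other miRNAs above RCM-1 in HT55 were miR-1290 (3.49), miR-132-3p (2.47), miR-181d-5p (2.47), miR-1247-5p (1.84), miR-200b-3p (1.47), miR-486-5p (1.47), miR-200b-5p (1.37), miR-23b-3p (1.28), miR-194-3p (1.27), miR-99b-5p (1.09), miR-24-3p (1.05), miR-183-5p (1.00), miR-182-5p (0.87) and miR-100-5p (0.86).

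Those below RCM-1 in HT55 were miR-338-5p (-2.76), miR-378g (-2.44), miR-150-5p (-2.10), miR-335-3p (-1.52), miR-192-5p (-1.46), miR-29a-3p (-1.27), miR-574-5p (-1.27), miR-194-5p (-1.12) and miR-224-5p (-1.12). The intestinal miRNAs did not go together: miR-194-5p and miR-192-5p were lower in HT55 and miR-194-3p, an arm of a hairpin that also makes miR-194-5p, was higher. For miR-23b-3p and miR-24-3p, SW1116 was above RCM-1 (1.17 ± 0.30 and 1.32 ± 0.33, edgeR adjusted p = 0.00866 and 0.00702) and near HT55 (-0.11 ± 0.29 and 0.26 ± 0.32). For miR-335-3p it was above HT55 (1.43 ± 0.38, edgeR adjusted p = 0.00982) and near RCM-1 (-0.09 ± 0.37).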

How the results depend on the processing

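Of the 41 calls, 12 held in every alternative that tested them and with each of the 6 libraries left out: 10 higher (miR-9-3p, miR-125a-5p, miR-205-5p, miR-99b-5p, let-7e-5p, miR-9-5p, miR-222-3p, miR-221-3p, miR-574-5p and miR-21-5p) and 2 lower (miR-148a-3p and miR-375-3p). miR-222-3p and miR-21-5p were not tested where the 10 most abundant miRNAs were left out. No direction reversed. Against the mean of the reference lines, the 24 higher became 13 in limma-trend and 14 with the references as 1 group, and 16 to 28 with a library left out; the 17 lower became 52 with library totals, 46 in limma-trend and 3 with the references as 1 group, and 12 to 17 with a library left out. Against HT55, the 33 higher became 13 with library totals, 13 in limma-trend and 21 after thinning (17 to 34 with a library left out), and the 32 lower became 55 with library totals (21 to 34). Against RCM-1, the 26 higher became 16 with library totals and 14 in limma-trend (18 to 34), and the 17 lower became 38 with library totals, 37 in limma-trend, 8 with no filter, 11 with 10 CPM in 2 libraries, 9 in DESeq2 and 11 without the 10 most abundant (6 to 16). Between HT55 and RCM-1, the 26 higher became 16 in limma-voom (10 to 27) and the 17 lower became 11 after thinning (2 to 13). Library totals shifted the differences from the mean by a median of -0.43; the cause of the other changes was not tested.

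Deviations of same-numbered libraries from their line means correlated at -0.105 (SW1116 and HT55), 0.249 (SW1116 and RCM-1) and -0.004 (HT55 and RCM-1). The labels give such libraries only a shared number, and whether they share anything more was not tested. With the replicate number as a block, 25 were higher and 21 lower, and all 41 calls remained. With a library left out, the lone library of its line is assumed to vary like the others. Depth limits miRNAs of few counts, such as miR-577.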
